A study of Mus musculus with 11 samples.

Results

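Retinas of rd10 mice and of wild-type mice were compared when both had received the same drug, so that the genotype difference left under equal exposure could be read gene by gene. The comparison used 6 of the 11 libraries in the study, 3 rd10 and 3 wild-type, and they were chosen by genotype and treatment labels alone. Wild-type mice were C57Bl/6J and the others carried the rd10 allele of Pde6b (labelled B6.CXB1-Pde6brd10/Jrd10), with C57Bl/6J given as the strain background of both. All 6 animals received GSK2879552 (GSK below), an inhibitor of the histone demethylase LSD1, at 4.2 mg/kg by daily intraperitoneal injection from postnatal day 9 to day 24. Right retinas were taken at postnatal day 24, 1 library per animal. The same genotype comparison under saline, 3 rd10 against 2 wild-type animals of the same age, shares no library with it and is given beside it. The rd10 mice came from a different line than the wild-type mice, so linked sequence differences between the lines cannot be told apart from the allele, and injections began before rod loss is known to start in this strain.

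The rd10 allele is a missense change in the catalytic beta subunit of rod phosphodiesterase, the enzyme that hydrolyses cGMP in the light response. Rods of these mice die in the weeks after eye opening and cones are lost later, while Müller glia become reactive and microglia move into the photoreceptor layer. LSD1, encoded by Kdm1a, removes methyl groups from histone H3 together with CoREST and the deacetylases HDAC1 and HDAC2, and is known for silencing genes during differentiation.

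The 6 libraries held 21683458 to 28053367 counts each. Transcripts of 18 lens genes summed to 7441 CPM, counts scaled to library size, in rd10 GSK animal 2, against 7.82 CPM or less in the other 5. Among the saline libraries wild-type animal 2 was likewise rich in lens transcripts, at 748 CPM. Xist, the RNA of the inactive X chromosome, was at 0.0771, 780.5 and 0.171 CPM in rd10 GSK animals 1 to 3 and at 911, 0.338 and 944 CPM in wild-type GSK animals 1 to 3, so its level was not balanced between the genotypes. Where the Xist level is named below as a term, it entered the fit only as at least 10 CPM or less. Skeletal muscle genes summed to 28 CPM in rd10 GSK animal 3, against 4.95 to 6.27 CPM in the other 5. The rd10 GSK animals differed more among themselves (median standard deviation 0.135 on the log2 scale over genes) than the wild-type GSK animals (0.083). On the first principal component of all 11 libraries, which held 61.0% of the variance, the rd10 GSK animals lay at 52.0, 23.1 and -10.4, and wild-type GSK animals lay between -50.5 and -47.2.

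Retinas of rd10 mice under GSK had fewer photoreceptor transcripts and more transcripts of reactive gliosis, inflammatory and immediate early genes than wild-type retinas under GSK. Of 17099 genes tested with edgeR's quasi-likelihood test, 4484 (26.2%) differed at a Benjamini-Hochberg adjusted p under 0.05. Of these, 2625 (15.4%) were higher and 1859 (10.9%) lower in rd10. With the libraries scaled to a common level of bipolar, amacrine and ganglion cell genes (inner retina scaling), 4604 were higher and 714 lower. Without the libraries rich in lens transcripts, 1461 were higher and 752 lower. Here and in the lists below, this setting leaves out rd10 GSK animal 2 and also wild-type saline animal 2, which is not compared. Without rd10 GSK animal 2 alone, 1992 were higher and 1150 lower. Changes of at least 2-fold were mostly upward, with 1035 genes (6.05%) higher and 118 (0.690%) lower. The 3 rd10 and 3 wild-type values did not overlap for 7550 genes (44.2%). Separate groups are therefore common, and where named below they only describe the values of a gene. The median over all genes tested was 0.01 on the log2 scale. In bulk tissue, fewer cells of a type and less RNA per cell cannot be told apart, and this holds for every cell-type list below. A gene is said to have risen or fallen where its adjusted p passed, and errors after log2 fold changes are standard errors.

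The genotype difference under saline was broader. There 6919 genes (40.5%) passed, 3669 higher (21.5%) and 3250 lower (19.0%), and 2095 (12.3%) passed with at least 2-fold. Of the genes higher under GSK, 1744 were also higher under saline, which is 66.4% of the GSK set and 47.5% of the saline set. Of the genes lower under GSK, 1146 were also lower under saline, 61.6% of the GSK set and 35.3% of the saline set. Among genes higher in both, the median difference was 0.99 under GSK and 1.25 under saline, and among genes lower in both it was -0.35 and -0.58. A test of the difference between the 2 genotype differences, the genotype by treatment interaction, passed for 2131 genes (12.5%), with 1280 (7.49%) more positive under GSK and 851 (4.98%) more negative. With inner retina scaling 3962 were more positive and 302 more negative. The interaction also takes in what the drug did in wild-type retina. Of the genes lower in both, 332 had a smaller difference under GSK by that test and 0 a larger one, against 127 and 20 of the genes higher in both. These interaction counts come from edgeR, in which 4657 genes had an unadjusted p under 0.05 for the interaction, and DESeq2 called 2445 and limma-voom 1925. Another 87 genes were higher under GSK and lower under saline, and 66 were lower under GSK and higher under saline.

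**Figure D1:**
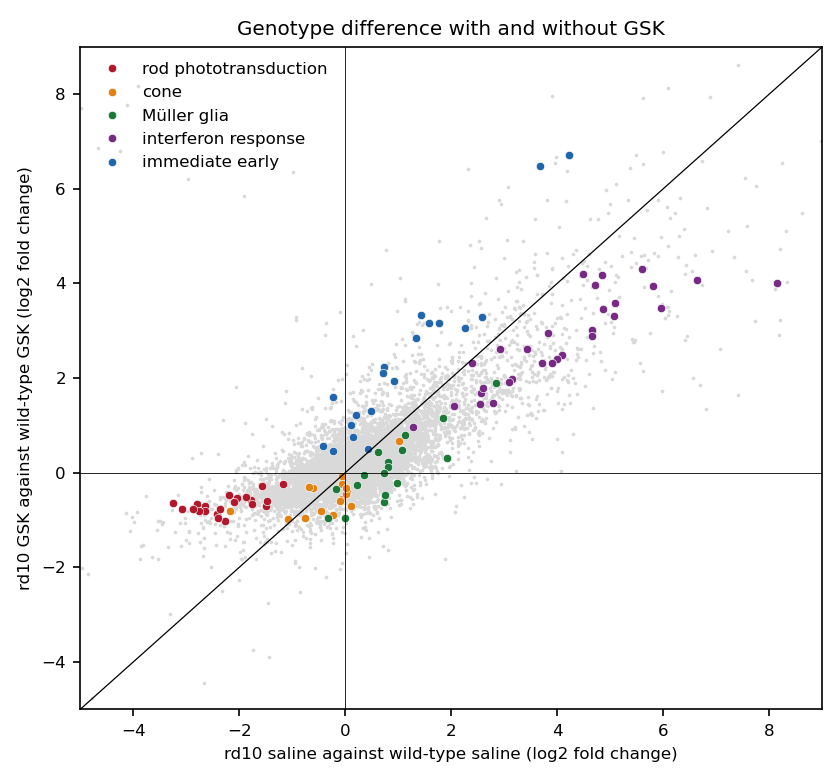
Log2 fold change of rd10 over wild type under saline (x axis) and under GSK (y axis), 1 point per gene, with the 17099 tested genes in grey and members of 5 lists in colour. Genes beyond the axis limits, lens genes among them, are not shown. The diagonal marks equal differences. Rod phototransduction genes lie to the left of 0 and above the diagonal, and immediate early genes lie above the diagonal.

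The 37 gene lists held 621 entries, of which 601 were tested. Over all genes tested 15.4% were higher and 10.9% lower, the shares to set beside the counts of each list. Within the rd10 GSK group the level of most lists followed the animal. Animal 1 had the lowest mean level of rod phototransduction, outer segment, synapse and cone genes and the highest mean level of gliosis, microglial, interferon and immediate early genes, while animal 3 had the rod, gliosis, microglial and interferon levels nearest to wild type.

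**Figure D2:**
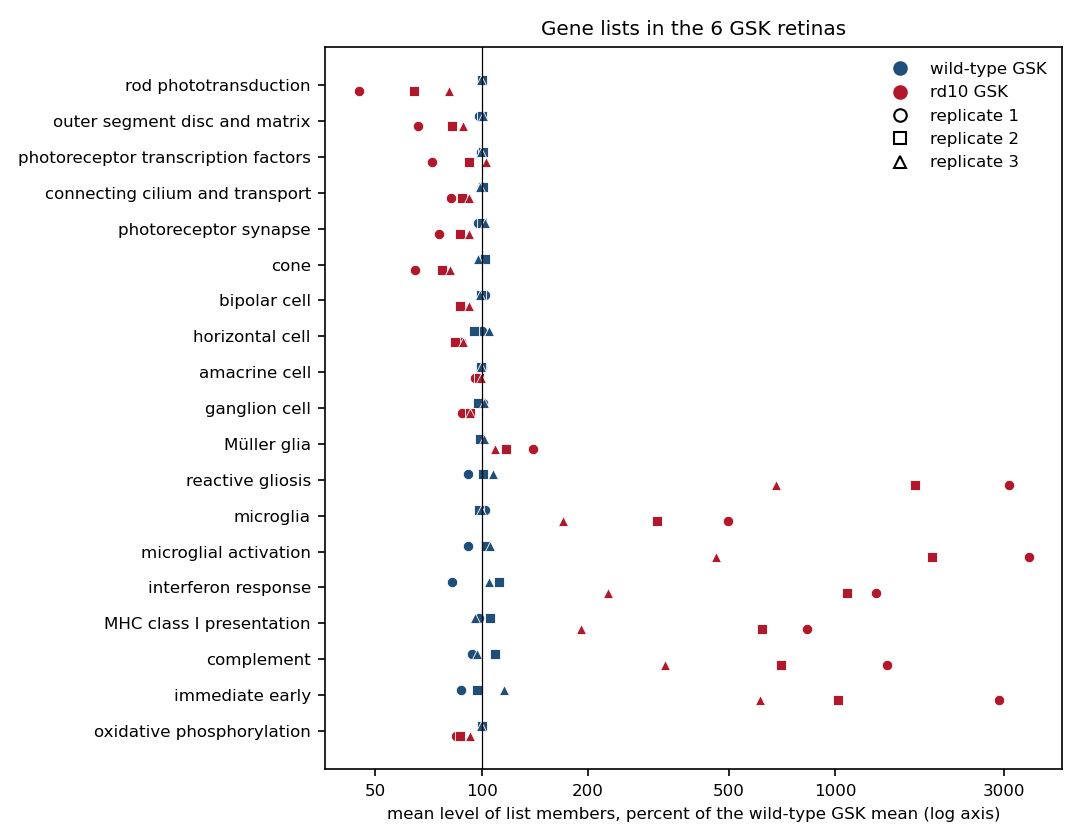
Mean level of the members of each list in each of the 6 GSK retinas, as a percentage of the wild-type GSK mean of each gene (log axis). Blue marks wild-type and red rd10 animals, with a symbol for each replicate. The rd10 values for rod phototransduction are 45.0%, 64.6% and 81.0%, and those for the immediate early list are 2901%, 1019% and 612%.

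Rods turn photon capture into a voltage change through the G protein transducin, phosphodiesterase and a cGMP-gated channel. Of 21 rod phototransduction genes, 14 fell in rd10 retinas under GSK and 7 did not pass. The median difference was -0.66, and it was -2.28 under saline, where all 21 fell. The mean level of the list was 45, 64.6 and 81% of the wild-type GSK mean in animals 1 to 3. The 3 wild-type animals lay between 99.7% and 100.2%, so that the groups did not overlap. The number lower was 6 without the libraries rich in lens transcripts, 7 without wild-type GSK animal 1 and 8 without wild-type GSK animal 2 or 3 or without rd10 GSK animal 2.

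Pde6b, the gene that carries the allele, stood at 991, 1381 and 1757 CPM in the rd10 animals and 2282, 2214 and 2232 CPM in wild type (log2 fold change -0.70 ± 0.18, adjusted p = 0.0175). Every rd10 animal was below every wild-type animal. Because the allele is a point change, these counts do not check the genotype labels. Under saline the difference was -2.64 ± 0.20, and the interaction was 1.94 ± 0.26, adjusted p = 0.00188.

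Gngt1, the gamma subunit of rod transducin, had the largest decrease of the list, from 1032, 1020 and 1018 CPM in wild type to 383, 482 and 656 CPM in rd10 (log2 fold change -1.01 ± 0.15, adjusted p = 0.00184). No rd10 value came near the wild-type range. Gucy2f, a guanylate cyclase that restores cGMP, stood at 91.6, 127 and 154 against 229.7, 228 and 269.6 CPM (log2 fold change -0.96 ± 0.24, adjusted p = 0.0214). Gnb1, the beta subunit of rod transducin, stood at 2223, 3579 and 4173 against 6281, 6113 and 5954 CPM (log2 fold change -0.88 ± 0.18, adjusted p = 0.00859). Slc24a1, the sodium, calcium and potassium exchanger of the rod membrane, stood at 732, 1049 and 1408 against 1851, 1868 and 1911 CPM (log2 fold change -0.82 ± 0.21, adjusted p = 0.0194). In these 3 genes too the groups were separate. The calls of Gngt1 and Gnb1 held in all 16 alternatives, and those of Pde6b, Gucy2f and Slc24a1 were lost in at least 1.

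Members that did not pass had wide rd10 values. Pdc, phosducin, which binds transducin subunits, stood at 1116, 1893 and 2692 against 3247, 3248 and 3253 CPM (adjusted p = 0.057). Grk1, a kinase that helps end the light response, stood at 984, 1289 and 1513 against 1547, 1476 and 1552 CPM (adjusted p = 0.189). In rd10 animal 3 the Grk1 value lay within the wild-type range. The genotype difference was less negative under GSK than under saline by the interaction test for 17 of the 21 genes.

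**Figure D3:**
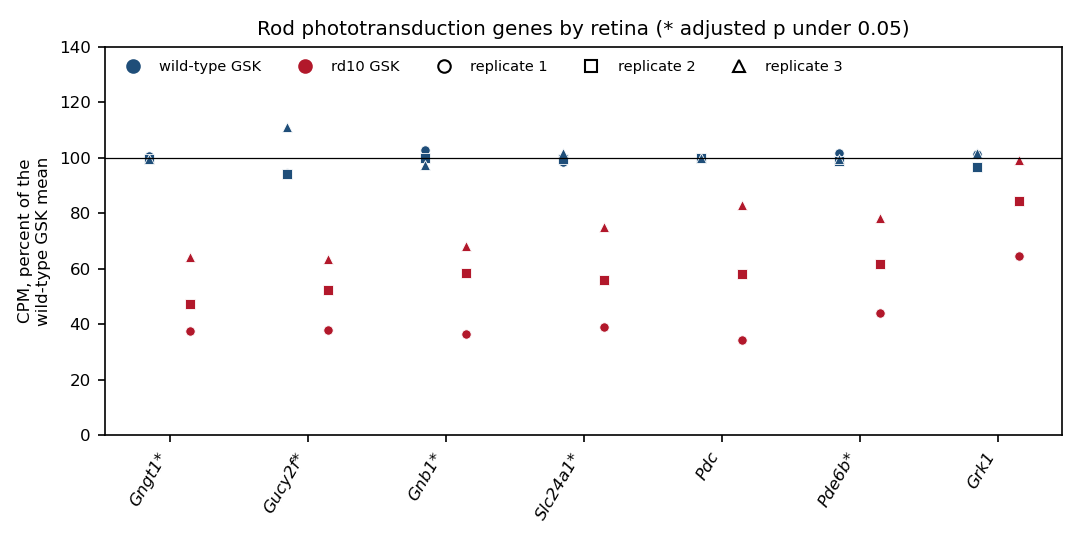
CPM of the 7 rod phototransduction genes described above in the 6 GSK retinas, as a percentage of the wild-type GSK mean of each gene, 1 symbol per replicate. Asterisks mark the 5 genes with an adjusted p under 0.05. In each gene shown rd10 animal 1 is lowest and animal 3 is nearest to wild type.

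Promoters of rod genes are known to hold sites of CRX, the homeobox factor that drives photoreceptor genes, and interferon genes are known to hold response elements bound by STAT and IRF factors. Promoters were read from the RefSeq GRCm38.p6 table (250 bases upstream of the start, in the direction of transcription), where 8 of the 14 rod genes that fell had an entry. The CRX core TAATCC, searched on both strands, was in 5 of these 8 and in 6.25% of 32851 promoters of the same length. The NRL site TGCTGA was in 2 of the 8 and in 16.1% of all. The promoters of Gngt1 (plus strand, chr6:3993758-3994007) and Gucy2f (minus strand, chrX:142196937-142197186), the rod genes with the largest decreases, are shown with matches to the CRX core in capitals, GGATTA being its reverse complement.
Gngt1: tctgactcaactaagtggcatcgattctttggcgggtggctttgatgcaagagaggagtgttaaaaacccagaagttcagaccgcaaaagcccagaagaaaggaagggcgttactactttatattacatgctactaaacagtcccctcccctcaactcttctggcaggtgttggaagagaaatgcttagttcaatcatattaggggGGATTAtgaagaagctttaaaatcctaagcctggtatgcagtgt
Gucy2f: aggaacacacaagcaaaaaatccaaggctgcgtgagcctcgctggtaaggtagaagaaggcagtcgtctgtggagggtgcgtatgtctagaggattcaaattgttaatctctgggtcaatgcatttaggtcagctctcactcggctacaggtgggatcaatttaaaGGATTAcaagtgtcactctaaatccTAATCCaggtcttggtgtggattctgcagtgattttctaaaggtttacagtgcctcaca
The match in Gngt1 begins 44 bases before the start. In Gucy2f there are 2 matches, on opposite strands, 84 and 59 bases before it. A match is a description of the sequence and was not tested as a binding site.

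Transcription factors of photoreceptors moved in both directions. Of 13 tested, 5 fell, 2 rose and 6 did not pass, with a median of -0.35 (-1.09 under saline). Nrl, which sets rod fate, was at 588, 1014 and 1405 against 1764, 1777 and 1719 CPM (log2 fold change -0.81 ± 0.26, adjusted p = 0.0493). Crx was at 759, 1005 and 1214 against 1364, 1383 and 1370 CPM (log2 fold change -0.47 ± 0.13, adjusted p = 0.0227), and again the 2 groups did not overlap. Neurod1, a factor of photoreceptor survival, rose: it was at 522, 470.4 and 364 CPM in rd10 and 311, 309.9 and 310.0 CPM in wild type (log2 fold change 0.54 ± 0.10, adjusted p = 0.00445). In saline animals it was lower in rd10 (-0.58 ± 0.12), and its interaction was 1.12 ± 0.16, adjusted p = 0.00125. Samd7, a Polycomb-associated repressor in rods, also rose, with 191, 320.1 and 363 against 162, 179 and 141 CPM under GSK (log2 fold change 0.86 ± 0.22, adjusted p = 0.0221), and its saline difference of -0.68 did not pass (adjusted p = 0.0518). The call of Neurod1 held in all 16 alternatives and those of Nrl, Crx and Samd7 were lost in at least 1. The number lower was 1 without the libraries rich in lens transcripts or without wild-type GSK animal 1, 2 with only the 6 GSK libraries fitted or without wild-type GSK animal 2 or 3 or without rd10 GSK animal 2, 3 with inner retina scaling or with no filter on low counts or with the Xist level as a term, 8 with DESeq2 and 9 without rd10 GSK animal 3. The factor number higher was 1 without the libraries rich in lens transcripts or with only the 6 GSK libraries fitted or without wild-type GSK animal 1 or 3 or without rd10 GSK animal 2.

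Genes of the outer segment, the stack of light-sensing discs, fell in 8 of 17 cases and 9 did not pass (median -0.51, and -1.92 under saline, where all 17 fell). Rdh12, a retinol dehydrogenase, was at 202, 289.6 and 363 CPM in rd10 and 462, 446 and 458 CPM in wild type (log2 fold change -0.68 ± 0.17, adjusted p = 0.0168). Rbp3, the retinoid carrier of the space around the photoreceptors, did not pass and its values lay on the other side: 8248, 9442 and 9003 CPM in rd10 and 7539, 7934 and 7725 CPM in wild type (adjusted p = 0.0631), although its difference under saline was -1.39 ± 0.08. All 3 rd10 values of Rbp3 were above the wild-type ones. The call of Rdh12 was lost in at least 1 alternative, and the number of genes lower was 1 without the libraries rich in lens transcripts, 2 without wild-type GSK animal 1 or 2, 3 without wild-type GSK animal 3, 4 without rd10 GSK animal 2 and 5 with no filter on low counts or with the Xist level as a term or with only the 6 GSK libraries fitted. The number higher, 0 here, was 1 with the Xist level as a term or without rd10 GSK animal 1, 2 with DESeq2 or without rd10 GSK animal 3 and 3 with inner retina scaling.

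Of 26 genes of the connecting cilium and its transport machinery, 13 fell, 1 rose and 12 did not pass (median -0.30). Bbs1, a subunit of the BBSome coat, stood at 102, 119 and 123 against 160.0, 172 and 165 CPM (log2 fold change -0.53 ± 0.07, adjusted p = 0.000619), and Lca5, the cilium protein lebercilin, had a difference of -0.49 ± 0.10 (adjusted p = 0.00566). The riser was Arl6, the small GTPase that recruits the BBSome, at 255, 231 and 164 against 119.7, 118 and 115 CPM (log2 fold change 0.88 ± 0.13, adjusted p = 0.00159). Under saline its difference was -0.21 (adjusted p = 0.276), and the interaction passed (1.09 ± 0.19, adjusted p = 0.00572). These 3 calls held in all 16 alternatives. The number lower was 4 without the libraries rich in lens transcripts, 5 without rd10 GSK animal 2, 6 with inner retina scaling or without wild-type GSK animal 1 or 2 and 8 without wild-type GSK animal 3 or without rd10 GSK animal 1.

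At the photoreceptor ribbon synapse 8 of 18 genes fell and 10 did not pass (median -0.28). Slc17a7, the vesicular glutamate transporter, was at 1181, 1448 and 1561 against 2022, 2205 and 2062 CPM (log2 fold change -0.59 ± 0.09, adjusted p = 0.00147), a call that held in all 16 alternatives. Cacna1f, the calcium channel of the terminal, was at 155, 197 and 257 against 302, 346 and 291 CPM (log2 fold change -0.63 ± 0.16, adjusted p = 0.0215). Its call was lost in at least 1 alternative. The number lower was 4 without the libraries rich in lens transcripts or without wild-type GSK animal 2 and 5 without wild-type GSK animal 1 or without rd10 GSK animal 2. The synapse number higher, 0 here, was 1 without rd10 GSK animal 3 and 2 with inner retina scaling.

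Cone genes were also lower. Of 16 cone genes 10 fell, 1 rose and 5 did not pass under GSK, with a median of -0.51, whereas under saline 3 fell and 1 rose (median -0.09). By the interaction test the difference was more negative under GSK for 4 genes and less negative for 1. Cngb3, a subunit of the cone cGMP-gated channel, was at 18.9, 23.9 and 23.8 CPM in rd10 GSK and 38.8, 41.5 and 42.8 CPM in wild-type GSK (log2 fold change -0.89 ± 0.11, adjusted p = 0.000421). Under saline it was at 34.2, 27.2 and 34.7 CPM in rd10 and 39.6 and 35.6 CPM in wild type, with a difference of -0.23 ± 0.12 (adjusted p = 0.156) and an interaction of -0.66 ± 0.16, adjusted p = 0.0237. Only the rd10 GSK animals were thus below 25 CPM, which follows in part from the choice of Cngb3 by its GSK and interaction calls.

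Gnat2, the alpha subunit of cone transducin, was at 76.3, 134 and 144 against 209, 222 and 195 CPM (log2 fold change -0.82 ± 0.20, adjusted p = 0.0179). Kcne2, a potassium channel subunit, was at 36.8, 63.5 and 62.2 against 114, 103 and 102 CPM (log2 fold change -0.97 ± 0.20, adjusted p = 0.00889), and its saline difference was -1.08. Animal 1 was lowest in both genes, as it was for the rod list. Kcnv2, a channel subunit of rods and cones, had -0.82 ± 0.16 under GSK (adjusted p = 0.00642) against -2.19 under saline. The cone opsins did not pass: Opn1sw was at 162, 398 and 313 against 578, 605 and 513 CPM (adjusted p = 0.0905) and Opn1mw at 108, 177 and 216 against 206, 219.5 and 202 CPM (adjusted p = 0.267). Gnb3, a transducin beta subunit that ON bipolar cells also use, rose (log2 fold change 0.68 ± 0.17, adjusted p = 0.0157). The calls of Cngb3, Kcne2 and Kcnv2 held in all 16 alternatives and those of Gnat2 and Gnb3 were lost in at least 1.

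Inner neurons had small differences. Of 24 bipolar cell genes 10 fell and 14 did not pass (median -0.17), while under saline 14 of the 24 were higher in rd10 (median 0.27). The interaction was more negative under GSK for 13. How many of these stay with inner retina scaling was not tested. Over all genes that scaling took the more negative interactions from 851 to 302. Cabp5, a calcium-binding protein of bipolar cells, was at 83.6, 80.0 and 87.1 against 126, 118 and 122 CPM under GSK (log2 fold change -0.54 ± 0.05, adjusted p = 0.000142) and differed by 0.22 ± 0.06 under saline (interaction -0.76 ± 0.08, adjusted p = 0.000243). Prkca, the kinase used to mark rod bipolar cells, was at 290.2, 353 and 418 against 501, 548 and 567 CPM (log2 fold change -0.61 ± 0.11, adjusted p = 0.00383). Pcp2, a regulator of G proteins in ON bipolar cells, had -0.49 ± 0.07 (adjusted p = 0.000638). In all 3 the groups were separate and the call held in all 16 alternatives.

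Trpm1, the channel of the ON light response, did not pass under GSK (-0.14) but was higher in rd10 under saline (0.45), with an interaction of -0.59 (adjusted p = 0.0069). The number of bipolar genes lower was 6 with inner retina scaling or without the libraries rich in lens transcripts. The bipolar number higher, 0 here, was 1 with the stricter filter or without rd10 GSK animal 3 and 2 with inner retina scaling. Inner retina scaling sets the libraries to a common level of inner retinal genes, moves the median of all genes to 0.14 on the log2 scale, and raises every difference by about that shift.

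Among 6 horizontal cell genes 3 fell and 3 did not pass. Lhx1, a homeobox factor of these cells, was at 9.06, 9.87 and 10.8 against 16.1, 14.6 and 15.2 CPM (log2 fold change -0.63 ± 0.09, adjusted p = 0.0011; interaction -0.89 ± 0.14, adjusted p = 0.00208). Calb1, a calcium-binding protein, was at 82.9, 82.8 and 103 against 123, 128 and 134 CPM (log2 fold change -0.52 ± 0.08, adjusted p = 0.00148), and both calls held in all 16 alternatives. Of 17 amacrine genes 2 fell (Gad1 and Tfap2b), 1 rose (Npy) and 14 did not pass, against 10.9% lower and 15.4% higher over all genes tested. The amacrine median of -0.05 changed sign with inner retina scaling (0.09). The number of amacrine genes lower was 0 with inner retina scaling or without the libraries rich in lens transcripts or without wild-type GSK animal 1 or 2 or 3 or without rd10 GSK animal 1, 1 with the Xist level as a term or with only the 6 GSK libraries fitted or without rd10 GSK animal 2, 5 with DESeq2 and 6 without rd10 GSK animal 3. The amacrine number higher was 0 with DESeq2 size factors or with no filter on low counts or with DESeq2 or with limma-voom or with the Xist level as a term or without the libraries rich in lens transcripts or with only the 6 GSK libraries fitted or without wild-type GSK animal 1 or 2 or 3 or without rd10 GSK animal 1 or 2 and 2 with inner retina scaling. Among 18 ganglion cell genes 4 fell, against 10.9% of all genes tested, and all by less than 0.31 on the log2 scale. Among these 4 were Nefl (log2 fold change -0.19 ± 0.06, adjusted p = 0.0388) and Pou4f2 (log2 fold change -0.30 ± 0.10, adjusted p = 0.0453). The ganglion cell number was 0 with inner retina scaling or without the libraries rich in lens transcripts or without wild-type GSK animal 1, 1 without wild-type GSK animal 2 or 3 and 2 with the Xist level as a term or with only the 6 GSK libraries fitted or without rd10 GSK animal 1 or 2.

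Müller glia, the radial glia that support photoreceptors and recycle glutamate and retinoid, showed a mixed picture. Of 17 genes 4 rose, 4 fell and 9 did not pass (median -0.02, and 0.12 with inner retina scaling; 2 fell without the libraries rich in lens transcripts), while under saline 12 rose and the median was 0.74. For 7 genes the interaction was more negative under GSK. Rlbp1, the retinaldehyde carrier of the visual cycle, was at 214, 266 and 342 CPM in rd10 GSK and 545, 514 and 539 CPM in wild-type GSK (log2 fold change -0.96 ± 0.14, adjusted p = 0.00158). In saline animals it was at 528, 529 and 447 CPM in rd10 and 496 and 504 CPM in wild type, a difference of 0.00 ± 0.15 (interaction -0.96 ± 0.21, adjusted p = 0.0154). The rd10 GSK animals alone lay below 350 CPM, which follows in part from the choice of Rlbp1 by its GSK and interaction calls. Retinal pigment epithelium also makes Rlbp1. The summed level of 13 of its marker genes was 172, 168 and 123 CPM in rd10 GSK against 229 to 300.1 CPM in wild-type GSK, and its part in the Rlbp1 difference was not tested. Of those 13 markers 1 fell and 12 did not pass (median -0.66), and the number lower was 0 without wild-type GSK animal 1, 2 with DESeq2 and 4 with limma-voom or without rd10 GSK animal 1.

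Gpr37, a receptor of glial cells, was at 176, 172 and 185 against 261, 229 and 254 CPM under GSK (log2 fold change -0.48 ± 0.07, adjusted p = 0.000713) but was higher in rd10 under saline (0.74 ± 0.07). Its interaction was -1.23 ± 0.10, adjusted p = 4.42e-05. Glul, glutamine synthetase, was at 942, 1611 and 2788 against 3427, 3535 and 3460 CPM, groups that did not overlap, yet the spread in rd10 left it above the threshold (adjusted p = 0.0559). Apoe, the lipid carrier, was at 944, 848 and 997 against 748, 719.5 and 777 CPM (adjusted p = 0.0725) and differed by 1.92 ± 0.14 under saline (interaction -1.61 ± 0.18, adjusted p = 0.00036). Among the risers, Sox9, a glial transcription factor, was at 46.9, 39.3 and 41.7 against 24.6, 22.9 and 26.1 CPM (log2 fold change 0.80 ± 0.07, adjusted p = 9.01e-05). Clu, a secreted chaperone, was at 1782, 1829 and 985 against 681, 688 and 682 CPM (log2 fold change 1.16 ± 0.21, adjusted p = 0.00501). Sox9, Clu, Gpr37 and Rlbp1 kept their calls in all 16 alternatives.

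Reactive gliosis genes were among the highest of all. Of 18, 17 rose and 1 did not pass, with a median of 3.27, against 3.08 under saline. Edn2, an endothelin that stressed photoreceptors release, had the largest increase among called genes with separate groups and a mean of at least 5 CPM, at 33.4, 24.4 and 10.6 CPM in rd10 and 0.202, 0.526 and 0.229 CPM in wild type (log2 fold change 6.1 ± 0.55, adjusted p = 0.000333). Serpina3n, a protease inhibitor of reactive glia, was at 226, 136 and 53.5 against 2.18, 3.04 and 3.21 CPM (log2 fold change 5.62 ± 0.59, adjusted p = 0.000945). Bcl3, a regulator of NF-kappaB, was at 57.3, 29.2 and 9.36 against 0.525, 0.676 and 0.642 CPM (log2 fold change 5.69 ± 0.77, adjusted p = 0.00245). These genes were picked among those with separate groups, so that every rd10 animal lay above wild type follows from the choice. In each, animal 1 was highest and animal 3 lowest. Gfap, the intermediate filament of reactive glia, was chosen after its values were seen: it was at 294, 324 and 128 against 23.3, 23.3 and 25.2 CPM (log2 fold change 3.38 ± 0.34, adjusted p = 0.000636). No member of the list passed the interaction test in edgeR, DESeq2 or limma-voom (0 of 18 in each), and 0 had an unadjusted p under 0.05 in edgeR. The calls of Edn2, Serpina3n and Bcl3 held in all 16 alternatives.

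Trophic factors and their receptors rose in 9 of 16 cases and fell in 1 (median 0.70). Fgf2, a survival factor of photoreceptors, was at 85.1, 61.3 and 33.1 against 5.09, 4.92 and 4.95 CPM (log2 fold change 3.58 ± 0.38, adjusted p = 0.000756; saline 2.54). Lif, the cytokine that glia-derived survival signalling starts from, was at 43.3, 6.6 and 4.44 against 0.728, 0.413 and 0.825 CPM (log2 fold change 4.8 ± 1.02, adjusted p = 0.0131), a call lost in at least 1 alternative, and Il6st, the receptor subunit that LIF signals through, had 0.83 ± 0.13 (adjusted p = 0.00198). Cebpd, a transcription factor induced by such cytokines, was at 246, 188 and 98.5 against 6.51, 6.99 and 8.11 CPM (log2 fold change 4.62 ± 0.36, adjusted p = 0.000221). The member that fell (2 fell without rd10 GSK animal 3) was Nxnl1, which encodes rod-derived cone viability factor, at 96.6, 159 and 182 against 373, 336 and 336 CPM (log2 fold change -1.26 ± 0.20, adjusted p = 0.0033; saline -2.95). Fgf2, Il6st, Cebpd and Nxnl1 kept their calls in all 16 alternatives.

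Microglial genes rose in 23 of 25 cases, with a median of 1.71 against 3.06 under saline. The list stood at 496, 313 and 170.0% of the wild-type mean in rd10 GSK animals 1 to 3. The interaction was more negative under GSK for 7 members. Irf8, a microglial transcription factor, was at 20.7, 10.7 and 5.0 against 2.51, 2.07 and 2.93 CPM (log2 fold change 2.28 ± 0.46, adjusted p = 0.00866) and Fcer1g, a receptor adaptor, at 12, 6.27 and 2.69 against 1.09, 1.43 and 1.56 CPM (log2 fold change 2.37 ± 0.49, adjusted p = 0.01). Both calls held in all 16 alternatives. The 2 that did not pass were P2ry12, the purinergic receptor of resting microglia, at 3.08, 4.15 and 6.62 against 5.38, 4.96 and 4.68 CPM (adjusted p = 0.742), and Siglech (adjusted p = 0.764). The number higher was 13 with only the 6 GSK libraries fitted or without wild-type GSK animal 2, 14 without the libraries rich in lens transcripts or without wild-type GSK animal 3 and 15 without wild-type GSK animal 1.

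Of 16 microglial activation genes 12 rose and 4 did not pass (median 2.52, and 4.04 under saline). Lgals3, galectin-3, was at 52.7, 16.9 and 2.78 against 1.46, 1.09 and 1.93 CPM (log2 fold change 4.03 ± 0.98, adjusted p = 0.0218) and Cybb, the NADPH oxidase subunit, at 17.1, 4.66 and 0.641 against 0.323, 0.376 and 0.229 CPM (log2 fold change 4.56 ± 1.2, adjusted p = 0.028). In both, animal 1 was many times above animal 3, which lay close to wild type, and the calls were lost in at least 1 alternative. Gpnmb, a glycoprotein of activated phagocytes, did not pass, at 98.2, 13.5 and 7.95 against 8.29, 8.56 and 14.2 CPM (adjusted p = 0.156). The number higher was 4 of 14 tested with only the 6 GSK libraries filtered and fitted. Of the 16 it was 5 without the libraries rich in lens transcripts or without wild-type GSK animal 1 or 2. It was 6 without wild-type GSK animal 3 and 7 with limma-voom.

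Complement genes rose in 8 of 12 cases (median 2.25). C4b, a component of the classical pathway, was at 118, 113 and 57 against 4.97, 5.11 and 3.99 CPM (log2 fold change 4.35 ± 0.32, adjusted p = 0.000159), and C3, the central component, at 77, 21.2 and 5.55 against 1.62, 2.03 and 2.06 CPM (log2 fold change 4.19 ± 0.99, adjusted p = 0.021). C4b was far above wild type in every rd10 animal and kept its call in all 16 alternatives, while C3 lost its call in at least 1.

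The MHC class I list rose in full, 11 of 11 (median 2.43), and the class II list in 4 of 7. Psmb8, an immunoproteasome subunit, was at 21, 16.5 and 5.51 against 2.35, 2.4 and 2.15 CPM (log2 fold change 2.64 ± 0.44, adjusted p = 0.00423), and Cd74, the invariant chain, at 15.7, 1.94 and 2.52 against 0.323, 0.451 and 0.367 CPM (log2 fold change 4.14 ± 1.16, adjusted p = 0.0352). Psmb8 kept its call in all 16 alternatives, and Cd74 did not. H2-Q4, another riser (log2 fold change 2.66 ± 0.51, adjusted p = 0.00943), belongs to a family of near-identical copies that share reads and is uncertain. The class I number was 6 without the libraries rich in lens transcripts. The class II number was 0 without the libraries rich in lens transcripts or without wild-type GSK animal 2. It was 1 with no filter on low counts or with limma-voom or with the Xist level as a term. It was also 1 without wild-type GSK animal 1 or 3 or without rd10 GSK animal 1. With only the 6 GSK libraries filtered and fitted it was 2 of 6 tested.

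Chemokine, cytokine and inflammasome genes rose in 20 of 23 cases (median 3.24). With only the 6 GSK libraries filtered and fitted, 9 of the 23 were tested, with a median of 1.93. Members almost absent in wild type pass the filter only through libraries where they are high. Their rise therefore follows in part from the filter. Cxcl10, a chemokine induced by interferon, was at 29.1, 19.9 and 1.2 against 0.121, 0.188 and 0.642 CPM (log2 fold change 5.76 ± 1.26, adjusted p = 0.0147). Ccl2, which attracts monocytes, was at 20.7, 3.0 and 0.128 CPM against 0.0404, 0 and 0.0458 CPM (adjusted p = 0.0294), too few wild-type counts for a fold. Both genes were high in animals 1 and 2 and near wild type in animal 3, and both calls were lost in at least 1 alternative. The number higher was 2 of the 9 tested with only the 6 GSK libraries fitted. Of the 23 it was 4 with limma-voom and 6 without the libraries rich in lens transcripts or without wild-type GSK animal 1 or 2. It was 9 without wild-type GSK animal 3, 11 without rd10 GSK animal 1 and 13 without rd10 GSK animal 2. For 4 markers of other leukocytes edgeR called 0, with 2 at an unadjusted p under 0.05, while DESeq2 called 1 and limma-voom 0, and 1 was called with inner retina scaling and 2 without rd10 GSK animal 3. The mean level of the 3 with wild-type GSK counts was 2242, 512 and 162% of the wild-type GSK mean in rd10 GSK animals 1 to 3 and 48.4% to 175% in wild type. The summed level of all 4 was 2.26 to 3.12 CPM in rd10 GSK and 2.29 to 2.93 CPM in wild-type GSK.

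Interferon-stimulated genes are switched on by type I and type II interferons through STAT and IRF factors. All 29 tested rose under GSK, with differences from 0.97 to 4.30 and a median of 2.62 against 3.99 under saline. The list stood at 1305, 1077 and 227% of the wild-type GSK mean in rd10 GSK animals 1 to 3, and at 82.6, 112 and 105% in the wild-type animals. Isg15, a ubiquitin-like modifier, was at 18.5, 14.8 and 1.62 CPM in rd10 and 0.525, 0.601 and 0.642 CPM in wild type (log2 fold change 4.3 ± 0.89, adjusted p = 0.0118). Gbp2, a guanylate-binding protein of the cell-autonomous defence, was at 79.9, 66.8 and 8.07 against 2.55, 2.7 and 3.21 CPM (log2 fold change 4.2 ± 0.82, adjusted p = 0.0103). Mx1, an antiviral GTPase, was at 6.28, 5.08 and 0.598 against 0.0809, 0.30 and 0.321 CPM (log2 fold change 4.07 ± 0.88, adjusted p = 0.0114). Animals 1 and 2 were high and animal 3 was low in each of these genes, though all 3 lay above wild type. By edgeR 0 of the 29 passed the interaction test, with 1 at an unadjusted p under 0.05, and DESeq2 called 1 and limma-voom 0. The calls of Isg15, Gbp2 and Mx1 were lost in at least 1 alternative, and the number higher was 14 without the libraries rich in lens transcripts.

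Of the 29 interferon genes, 21 had a promoter entry in the RefSeq table. The core of the interferon-stimulated response element, TTTC, any 2 bases and TTTC on either strand, was in 10 of the 21 and in 2.98% of all 32851 promoters. The promoters of Isg15 (minus strand, chr4:156200819-156201068) and Gbp2 (plus strand, chr3:142620413-142620662), the members with the largest increases, are shown with the matches in capitals.
Isg15: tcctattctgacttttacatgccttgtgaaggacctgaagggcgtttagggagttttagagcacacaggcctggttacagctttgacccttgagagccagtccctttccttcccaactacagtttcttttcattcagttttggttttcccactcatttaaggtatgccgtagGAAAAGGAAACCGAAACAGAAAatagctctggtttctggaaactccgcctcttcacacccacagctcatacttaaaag
Gbp2: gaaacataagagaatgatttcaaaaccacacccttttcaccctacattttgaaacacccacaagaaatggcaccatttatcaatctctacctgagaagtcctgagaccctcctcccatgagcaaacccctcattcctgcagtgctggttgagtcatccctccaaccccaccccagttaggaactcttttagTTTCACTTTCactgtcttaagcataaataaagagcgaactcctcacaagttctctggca
In Isg15 the capitals are 3 overlapping matches on the reverse strand, beginning 78, 72 and 66 bases before the start, and in Gbp2 there is 1 match 59 bases before it. These too are descriptions of sequence.

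Immediate early genes, transcription factors and regulators that cells switch on within minutes of stimulation without new protein synthesis, rose almost throughout. Of 19, 18 rose under GSK and Klf4 did not pass. The rd10 and wild-type values did not overlap in any of the 19, against 44.2% of all genes tested without overlap. The median was 2.12 under GSK and 0.72 under saline, where 10 rose and 1 fell. For 11 members the interaction was more positive under GSK. The number of risers was 18 or 19 in each of the 16 alternatives.

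Junb, a subunit of the AP-1 factor, was at 210.1, 162 and 91.4 CPM in rd10 GSK and 14.8, 15.3 and 15.6 CPM in wild-type GSK (log2 fold change 3.34 ± 0.29, adjusted p = 0.000296). The saline animals had 52.4, 48.4 and 40.0 CPM in rd10 and 18.3 and 16.7 CPM in wild type, a difference of 1.42 ± 0.32 (interaction 1.92 ± 0.41, adjusted p = 0.0202). Rd10 GSK animals were thus above all other animals. The next 3 genes were chosen after their values were seen. Nr4a1, an orphan nuclear receptor, was at 133, 135 and 124 against 29.6, 29 and 31.9 CPM (log2 fold change 2.12 ± 0.07, adjusted p = 4.27e-08), among the most even differences of the list, with a saline difference of 0.71 ± 0.08 and an interaction of 1.41 ± 0.11, adjusted p = 3.2e-05. Fos, the AP-1 partner of the Jun proteins, was at 116, 93.3 and 79.7 against 17.7, 21 and 22.6 CPM (log2 fold change 2.24 ± 0.17, adjusted p = 0.000103; interaction 1.52 ± 0.25, adjusted p = 0.00562). Egr1, a zinc finger factor, was at 184, 111 and 110.1 against 13.3, 16.9 and 18.9 CPM (log2 fold change 3.05 ± 0.27, adjusted p = 0.000334; saline 2.26). All rd10 values in these genes were several times the wild-type ones.

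Ier2 was at 44.4, 33.2 and 36.4 against 16.1, 15.1 and 17.6 CPM (log2 fold change 1.23 ± 0.11, adjusted p = 7.82e-05), with a saline difference of 0.21 (adjusted p = 0.204) and an interaction of 1.02 ± 0.16, adjusted p = 0.00229. Egr2 and Fosl1 were nearly silent in wild type, at 0, 0.0376 and 0.0917 CPM and 0.0404, 0.0376 and 0.138 CPM, and stood at 11.2, 2.12 and 1.24 CPM and 13.1, 5.08 and 1.67 CPM in rd10 (adjusted p = 0.00645 and 0.00225).

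**Figure D4:**
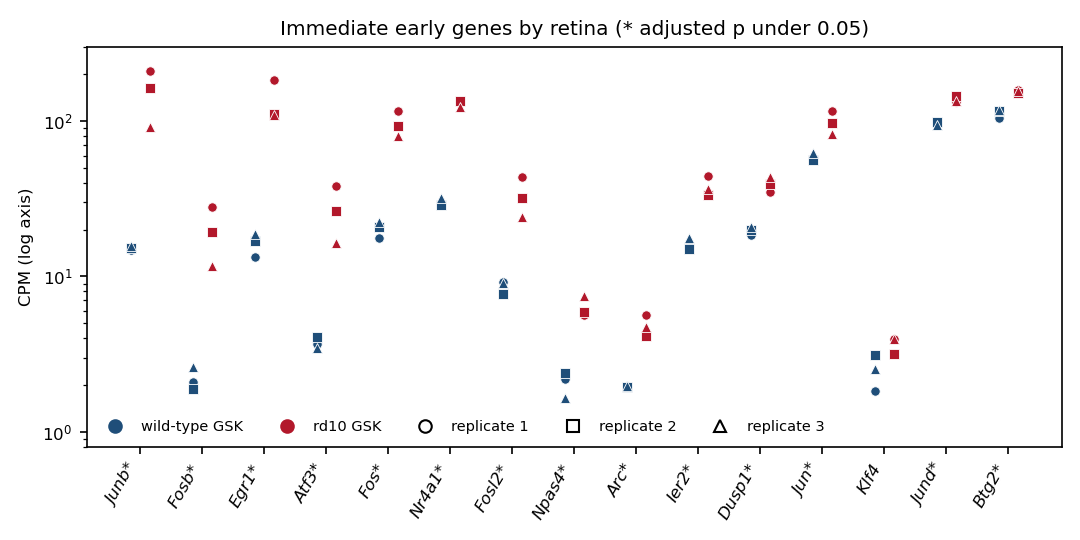
CPM (log axis) of the 15 immediate early genes with a wild-type GSK mean of at least 1 CPM in the 6 GSK retinas, 1 symbol per replicate. Asterisks mark an adjusted p under 0.05, which all but Klf4 reached. Red rd10 points lie above blue wild-type points in every gene shown.

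Genes of cell death, stress and division rose in part. Of 25 cell death genes 14 rose and 1 fell (median 0.34). Fas, the death receptor, was at 4.7, 3.55 and 1.58 against 0.242, 0.488 and 0.413 CPM (log2 fold change 3.09 ± 0.40, adjusted p = 0.000562), and Cdkn1a, the cell cycle inhibitor p21, at 21.1, 20.9 and 24.2 against 7.32, 7.29 and 8.11 CPM (log2 fold change 1.54 ± 0.11, adjusted p = 2.81e-05). Casp9 and Bcl2l1 did not pass. The calls of Fas and Cdkn1a held in all 16 alternatives. The number higher was 6 without the libraries rich in lens transcripts, 7 without wild-type GSK animal 1 or 2 and 9 with only the 6 GSK libraries fitted or without wild-type GSK animal 3. The cell death number lower was 0 with inner retina scaling and 2 with DESeq2 size factors or without rd10 GSK animal 1.

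Of 14 ER stress genes 6 rose (median 0.27). Atf4, the translationally controlled factor of the integrated stress response, was at 349, 339 and 342 CPM in rd10 and 240.0, 229.7 and 242 CPM in wild type (log2 fold change 0.53 ± 0.05, adjusted p = 9.01e-05). Under saline it was lower in rd10 (-0.44 ± 0.05; interaction 0.98 ± 0.07, adjusted p = 3.2e-05). Ddit3, which encodes CHOP, was at 46.5, 40.7 and 41.7 against 28.6, 29.8 and 31.4 CPM (log2 fold change 0.52 ± 0.07, adjusted p = 0.00064; saline -0.17, adjusted p = 0.104). Neither overlapped wild type, and both calls held in all 16 alternatives. With inner retina scaling 12 members rose.

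Of 20 antioxidant and metal genes 10 rose (median 0.22; 6 without wild-type GSK animal 2). The metallothioneins Mt1 and Mt2, which bind zinc and copper, were at 188, 155 and 126 CPM and 184, 146 and 118 CPM in rd10 against 30.1, 35 and 28.7 CPM and 15.3, 18.2 and 12.1 CPM in wild type, with differences of 2.32 ± 0.15 and 3.29 ± 0.22 that were close to those under saline (2.25 and 3.12). Both calls held in all 16 alternatives. Of 18 cell division genes 13 rose (median 1.07). Mki67, a marker of cycling cells, was at 3.47, 6.09 and 0.598 CPM against 0.0404, 0.0376 and 0.0917 CPM (adjusted p = 0.00509), highest in animal 2, while Mcm2, a replication helicase subunit, had 0.86 ± 0.11 (adjusted p = 0.000499). The number of cell division genes higher was 3 of 12 tested (median 0.49) with only the 6 GSK libraries filtered and fitted. Of the 18 it was 5 without the libraries rich in lens transcripts and 6 with limma-voom or without wild-type GSK animal 1. It was 7 without wild-type GSK animal 2 or without rd10 GSK animal 1 or 2 and 8 without wild-type GSK animal 3. Of 16 progenitor and Notch genes 4 rose, with Notch1 at 189, 159.7 and 116 against 52.6, 54.8 and 64.3 CPM (log2 fold change 1.44 ± 0.15, adjusted p = 0.000436), and 1 fell, Six6 (log2 fold change -0.23 ± 0.07, adjusted p = 0.0227), where the number lower was 0 with inner retina scaling or without the libraries rich in lens transcripts or without wild-type GSK animal 1 or 2 or without rd10 GSK animal 1 or 2 and 2 without rd10 GSK animal 3.

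The drug target and its partners differed little between the genotypes. Kdm1a was at 93.7, 94.6 and 104 CPM in rd10 and 100.3, 96.6 and 105 CPM in wild type, ranges that overlap (log2 fold change -0.04 ± 0.05, adjusted p = 0.584). Hdac1 was at 40.7, 35.8 and 33.5 against 35.9, 37.2 and 37 CPM (log2 fold change 0.00 ± 0.07, adjusted p = 0.999). In the list of LSD1 and HDAC complex members 4 of 21 fell and 17 did not pass, against 10.9% lower over all genes tested. The median of that list was -0.03 and became 0.10 with inner retina scaling. The number lower was 2 with inner retina scaling or with the Xist level as a term or without the libraries rich in lens transcripts or without wild-type GSK animal 1 or 3 or without rd10 GSK animal 1 or 2. In that list the number higher, 0 here, was 1 with the Xist level as a term or without rd10 GSK animal 3 and 5 with inner retina scaling. Mta2, a subunit of the NuRD complex, was at 155, 158 and 179 against 201, 199 and 215 CPM (log2 fold change -0.32 ± 0.06, adjusted p = 0.0038), and Zmym2, a partner of LSD1 complexes, at 106, 105 and 112 against 139, 140.1 and 147 CPM (log2 fold change -0.40 ± 0.08, adjusted p = 0.00453). Both calls held in all 16 alternatives.

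Energy metabolism genes had small differences. Of 19 oxidative phosphorylation genes 8 fell, 0 rose and 11 did not pass (median -0.18, and -0.05 with inner retina scaling). The mean level of this list was 84.71, 86.85 and 92.99% of the wild-type GSK mean in rd10 GSK animals 1 to 3. In the wild-type GSK animals it was 99.34% to 100.5%. The number lower was 2 with inner retina scaling or without the libraries rich in lens transcripts or without wild-type GSK animal 1 or 2, 3 without rd10 GSK animal 1 or 2, 5 without wild-type GSK animal 3 and 13 without rd10 GSK animal 3. Of 21 glycolysis and lactate genes 1 rose and 4 fell (median -0.07, and 0.07 with inner retina scaling). Over all genes tested 15.4% rose and 10.9% fell. The glycolysis number lower was 0 with inner retina scaling or without the libraries rich in lens transcripts or without wild-type GSK animal 1, 1 without wild-type GSK animal 3 or without rd10 GSK animal 2 and 2 without wild-type GSK animal 2 or without rd10 GSK animal 1, and the number higher was 2 without rd10 GSK animal 3 and 3 with inner retina scaling. Hk1, a hexokinase, which starts glycolysis, was the riser, at 1245, 1412 and 1397 against 1018, 1035 and 1048 CPM (log2 fold change 0.39 ± 0.06, adjusted p = 0.00148), and it was lower in rd10 under saline (-0.50 ± 0.07; interaction 0.88 ± 0.09, adjusted p = 0.000171). Hk1 kept its call in all 16 alternatives. Of 15 vessel genes 3 rose, against 15.4% of all genes tested. Among them Vwf, the clotting factor carrier of endothelium, rose by 1.3 ± 0.18 (adjusted p = 0.00148). The number of vessel genes higher was 1 without the libraries rich in lens transcripts or without wild-type GSK animal 2 and 8 with inner retina scaling, and the number lower, 0 here, was 1 with only the 6 GSK libraries fitted and 2 without rd10 GSK animal 3.

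Some genes differed by genotype about as much with the drug as without it. The clearest were low in every rd10 animal under either treatment. Sun2, a nuclear envelope protein that links lamina and cytoskeleton, was at 10.1, 8.63 and 9.7 CPM in rd10 GSK and 34.4, 33.8 and 33 CPM in wild-type GSK (log2 fold change -1.83 ± 0.07, adjusted p = 1.31e-07). Under saline it was at 9.08, 8.49 and 8.69 CPM in rd10 and 33.1 and 34.9 CPM in wild type (-1.96 ± 0.08; interaction 0.13 ± 0.11, adjusted p = 0.503). Ccl27a, a skin chemokine gene with near-identical copies in the mouse genome, was at 0.347, 0.369 and 0.47 against 11, 11 and 10.7 CPM under GSK (log2 fold change -4.77 ± 0.20, adjusted p = 1.31e-07) and 0.349, 0.277 and 0.487 against 8.95 and 11.8 CPM under saline. Rd10 and wild type did not overlap in either treatment for these genes, and the calls held in all 16 alternatives. For Ccl27a separate groups under GSK were a condition of its choice. Pisd-ps1 and Pisd-ps2, pseudogenes that share sequence with Pisd, were lower too (-1.82 ± 0.30 and -1.66 ± 0.24, against -1.69 and -1.33 under saline), but reads shared among copies make these 3 genes uncertain. The rest of the nuclear lamina list moved less: of its 10 members, 2 rose and 2 fell, Sun2 among them. Lmna, encoding A-type lamins, rose (log2 fold change 0.84 ± 0.19, adjusted p = 0.0114), and Lmnb1 fell (log2 fold change -0.32 ± 0.11, adjusted p = 0.0473). The lamina number higher was 0 without the libraries rich in lens transcripts, 1 without wild-type GSK animal 1 or 2 or 3 or without rd10 GSK animal 2 and 6 with inner retina scaling, and the number lower was 1 with inner retina scaling or with the Xist level as a term or without the libraries rich in lens transcripts or with only the 6 GSK libraries fitted or without wild-type GSK animal 1 or 2 or 3 or without rd10 GSK animal 1 or 2.

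Lad1, an anchoring filament protein and another of the largest increases, was at 47.6, 39.7 and 20.7 against 0.647, 0.714 and 0.596 CPM (log2 fold change 5.77 ± 0.37, adjusted p = 4.49e-05; saline 2.9; interaction 2.87 ± 0.58, adjusted p = 0.0132). Capn11, a calpain, was at 0.347, 0.60 and 0.683 against 15.2, 15.9 and 4.58 CPM (log2 fold change -4.46 ± 0.79, adjusted p = 0.00566), where the wild-type animals themselves varied widely. Under saline the wild-type mean of Capn11 was only 2.25 CPM with a standard deviation of 2.50, and the rd10 mean was 0.34 CPM. Wnt9b, a Wnt ligand, was at 2.31, 3.23 and 3.46 against 9.22, 8.56 and 8.16 CPM (log2 fold change -1.53 ± 0.16, adjusted p = 0.000176; saline -2.44). Mc1r, the melanocortin receptor, had -1.47 ± 0.23 under GSK and -2.74 under saline. Enpp2, the secreted enzyme autotaxin, was at 39.9, 65.3 and 87.5 against 148, 158 and 158 CPM (log2 fold change -1.27 ± 0.24, adjusted p = 0.00702), and under saline its difference was 0.00 (adjusted p = 0.995; interaction -1.27 ± 0.36, adjusted p = 0.0533). All 5 kept their calls in all 16 alternatives.

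In contrast, 143 of the genes higher and 123 of those lower under GSK did not pass under saline and had an interaction call. Genes that passed in the opposite direction under saline were named with them. The genes here and in the next paragraph were picked by these calls. That their rd10 GSK values stand apart follows in part from the choice. Sec22c, a vesicle trafficking protein, was at 403, 421 and 294 CPM in rd10 GSK against 132, 123 and 139 CPM in wild-type GSK (log2 fold change 1.5 ± 0.13, adjusted p = 0.000102). Under saline it was at 137, 117 and 139 CPM in rd10 and 156 and 139.7 CPM in wild type (interaction 1.68 ± 0.19, adjusted p = 0.000469), so that the rd10 GSK animals stood above the other 8. Dnmt3b, a de novo DNA methyltransferase, was at 7.48, 7.57 and 7.86 against 3.4, 2.67 and 3.3 CPM (log2 fold change 1.29 ± 0.14, adjusted p = 0.000176), with 3.23, 2.86 and 3.61 and 3.02 and 3.16 CPM under saline (interaction 1.22 ± 0.21, adjusted p = 0.00372). Sp6, a zinc finger transcription factor, rose under GSK (log2 fold change 1.34 ± 0.16, adjusted p = 0.000521) and was lower in rd10 under saline (-0.82). Marveld3, a tight junction protein, had 1.33 ± 0.12 against 0.04, and Cerkl, a ceramide kinase-like gene mutated in retinal dystrophy, had 1.3 ± 0.17 against 0.36. The calls of these 5 genes held in all 16 alternatives.

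On the lower side, Slitrk2, a synaptic adhesion protein, was at 29.2, 31.6 and 37.2 against 56.9, 50.7 and 54.7 CPM (log2 fold change -0.73 ± 0.09, adjusted p = 0.000404), while under saline it was higher in rd10 (0.35 ± 0.10; interaction -1.08 ± 0.13, adjusted p = 0.000561). Omg, the oligodendrocyte-myelin glycoprotein, was at 15.2, 20.2 and 19.6 against 32, 32.3 and 29.9 CPM (log2 fold change -0.78 ± 0.09, adjusted p = 0.000354; interaction -0.66 ± 0.14, adjusted p = 0.0108). Olfm4, a secreted olfactomedin, had -0.88 ± 0.18 under GSK and 0.28 under saline (interaction -1.16 ± 0.27, adjusted p = 0.0202). In each of these, all rd10 GSK values lay below all wild-type GSK values, and the calls held in all 16 alternatives.

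**Figure D5:**
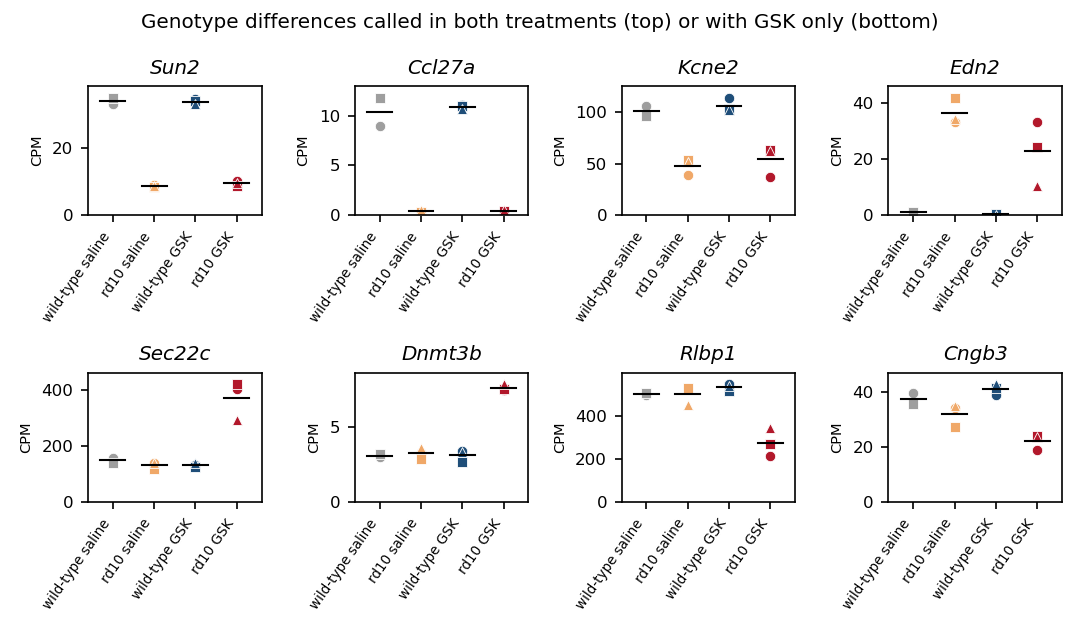
CPM (linear axes from 0) of 8 genes in each of the 11 retinas, by group, with 1 symbol per replicate and a bar at the group mean. In the top row rd10 differs from wild type under both treatments, and in the bottom row the rd10 GSK animals stand apart from the other groups. The genes of the bottom row were chosen by their GSK and interaction calls, so this follows in part from the choice.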

How the data were processed

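The authors deposited raw read counts per gene (37991 Ensembl genes, 11 libraries); per the submitters' processing notes, base calls came from bcl2fastq, alignment from HISAT2 2.1.0, counting from HTSeq, and edgeR was used, with builds NCBIM37 and mm9. Strand setting and annotation: not given in the sources used here. Overlapping genes and near-identical copies are therefore uncertain. Per the labels' protocols, RNA integrity numbers were above 7 and polyA RNA was taken from 200 ng of total RNA of each animal's right retina. The p-values therefore measure the spread between animals, pooled over the groups of all 11 libraries. The rd10 GSK animals varied more (median standard deviation 0.135 on the log2 scale) than the wild-type GSK animals (0.083), so the pooled spread is not theirs alone.

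Names came from GENCODE M21 by identifier (32919 matched, and the 5072 others held 0.627% of counts). Genes passing filterByExpr (minimum count 10, minimum total 15; 17099 genes) were scaled by TMM and fitted in edgeR 4.0.16 (R 4.3.3) with 1 coefficient per group over all 11 libraries and robust quasi-likelihood dispersions (common biological coefficient of variation 0.129), and checked on simulated data. P-values were adjusted by Benjamini-Hochberg over all genes tested. Standard errors were derived from the fold change and its F statistic. CPM are TMM-scaled. Libraries held 19657030 to 28053367 counts.

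The comparison and the gene lists (617 of 621 entries matched) were chosen with earlier results of these data known. Named genes were Kdm1a, Hdac1 and Pde6b, the 12 highest and 12 lowest called genes with separate groups and a mean of at least 5 CPM, up to 4 called genes each way and 3 others per list, the largest differences that were as large under saline or called under GSK with an interaction and not called, or opposite in sign, under saline, and 10 genes either side of Pde6b. For many of them only the list's count is printed. The alternatives were DESeq2 1.42.0, limma-voom (limma 3.58.1), other scalings and filters, added terms and libraries left out. Promoters and their coordinates were read from RefSeq GRCm38.p6, not the authors' build. The gene order around Pde6b and the chromosome of each gene also came from a RefSeq GRCm38 gene reference.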

Additional observations from a re-analysis of the deposited data

Results flagged for a closer look

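All results here are differences between the genotype difference under GSK and that under saline, by the interaction test of edgeR at an adjusted p under 0.05, and 2131 genes passed it. Among photoreceptor lists the difference was more positive (less negative or higher) under GSK for 17 of 21 rod phototransduction genes. It was so for 16 of 17 outer segment genes, 11 of 18 photoreceptor synapse genes and 10 of 26 connecting cilium genes. It was so too for 9 of 13 photoreceptor transcription factors, and for 7.49% of all genes tested. The same direction was found for 11 of 19 immediate early genes and 6 of 21 glycolysis and lactate genes. The difference was more negative under GSK for 13 of 24 bipolar cell genes and 7 of 17 Müller glia genes. It was so too for 7 of 25 microglial genes and 5 of 16 progenitor and Notch genes. Over all genes tested the more negative share was 4.98%. With inner retina scaling 3962 genes were more positive and 302 more negative, against 1280 and 851 as reported.

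Of the genes named, those with a more positive difference under GSK were Lad1 (interaction log2 fold change 2.87), Sp6 (2.16), Pde6b (1.94), Sec22c (1.68), Marveld3 (1.29), Mc1r (1.27), Dnmt3b (1.22), Ier2 (1.02), Mlf1 (1.01), Tead3 (1.01), Cerkl (0.94) and Wnt9b (0.91). Those with a more negative difference were Olfm4 (-1.16), Slitrk2 (-1.08), Rlbp1 (-0.96), Kcne1l (-0.91), Ccdc136 (-0.81), Cngb3 (-0.66), Omg (-0.66) and Strip2 (-0.49). Each interaction uses the 2 wild-type saline animals, and the count of 2131 fell to 864 or 960 when either was left out.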

How the results depend on the processing

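Of 167 named genes called, 91 kept the call in every alternative in this comparison and 0 changed sign. The total of 4484 stayed within 1.5 times with DESeq2 (4562), limma-voom (4243), DESeq2 size factors, other filters, the Xist term (3855) and only the 6 GSK libraries (3485). Inner retina scaling gave 4604 higher and 714 lower (86.6% higher, against 58.5%) and moved the median of all genes from 0.01 to 0.14. It gave 571 genes lower in both treatments and 4264 interaction calls, 3962 more positive and 302 more negative. Without the 2 libraries rich in lens transcripts (rd10 GSK animal 2 and wild-type saline animal 2), 2213 genes passed (1461 higher, 752 lower), 4081 under saline (2003 and 2078), 524 by interaction (377 and 147), and 795 higher and 453 lower in both treatments. Without rd10 GSK animal 2 alone, 3142 genes passed under GSK (1992 higher, 1150 lower). Leaving out both libraries also leaves fewer samples, and the cause was not tested.

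Leaving out each library in turn gave 2515 to 5694 genes under GSK, 1530 to 3250 higher and 985 to 2444 lower, with 713 to 1315 at least 2-fold higher and 70 to 212 at least 2-fold lower; the extremes were wild-type GSK animal 1 (2515) and rd10 GSK animal 3 (5694). Under saline it gave 4435 to 6810 genes, 2195 to 3464 higher and 2203 to 3346 lower, with the fewest in all and higher without wild-type saline animal 1 and the fewest lower without animal 2. For the interaction it gave 864 to 3139, 575 to 1732 more positive and 289 to 1407 more negative, with the fewest without wild-type saline animal 1. Genes higher in both treatments numbered 1098 to 2232 and genes lower in both 673 to 1533, with the fewest without wild-type GSK animal 1.

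The labels number the animals, and same-numbered GSK animals did not deviate together (correlations -0.09, -0.19 and -0.14), so the numbers do not pair them. With the replicate number as a block 4163 genes passed, 14 of the 167 named calls were lost and no call reversed. The block moved the genes higher from 4 to 1 for MHC class II, from 12 to 7 for microglial activation, from 1 to 0 for amacrine and from 0 to 1 for bipolar genes, and the pigment epithelium markers lower from 1 to 5. Where a list had 0 calls in a direction, 1 was called higher for horizontal cell genes with the Xist term and for ganglion cell genes without rd10 GSK animal 3, and 1 lower for microglia without rd10 GSK animal 3 and for antioxidant genes with DESeq2. At 3 animals against 3, a gene that missed the threshold is not shown to be equal.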

Other observations

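Pde6b carries the rd10 allele, and its neighbours on chromosome 5 travel with it from the donor line. Of the 10 tested genes on each side of Pde6b, 4 were called under GSK. A930041C12Rik was higher in rd10 (log2 fold change 0.98 ± 0.16, adjusted p = 0.00207) but lower under saline (-1.39, adjusted p = 0.000192). Pigg, an enzyme of the GPI anchor pathway, was lower (log2 fold change -0.20 ± 0.06, adjusted p = 0.0349), and so were Atp5k, a subunit of ATP synthase (log2 fold change -0.31 ± 0.08, adjusted p = 0.0145; saline -0.28), and Slc26a1, an anion exchanger (log2 fold change -0.94 ± 0.29, adjusted p = 0.0328). The other 16 did not pass in edgeR under GSK. The share of tested genes called was 25.8% on chromosome 5, within the range over the autosomes and the X chromosome of 23.3% to 31.7%, and 26.2% over all genes. Without strand information, reads of overlapping genes in this region cannot be told apart.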
